A study of Mus musculus with 12 samples.

Results

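The replication-dependent histone genes were taken as every row of the deposited TPM table (transcripts per 1000000) whose symbol starts with Hist1h, Hist2h, Hist3h or Hist4h, which gave 68 of 23184 gene symbols. They comprised 6 linker histone H1 genes, 18 H2A, 19 H2B, 12 H3 and 13 H4 genes, with 1 pseudogene (Hist3h2bb-ps) among the H2B genes. RNA was sequenced from HL-1, a mouse cell line of atrial heart muscle origin, in 12 libraries that formed 3 groups of 4, to find genes related to Wdr62, which encodes a protein of the centrosome and mitotic spindle. Control cells (CON, WT genotype in the labels) received viruses with the vectors pCDH and lentiCRISPRv2, knockdown cells (KD, genotype WDR62-) received a virus with an sgRNA against Wdr62, and re-expression cells (RE, genotype WDR62+) were made by adding a pCDH-WDR62-WT-flag virus to KD cells. All cells were grown with 10% FBS. The labels name the pCDH vector in CON and RE but leave it out of KD, and do not say whether KD was 1 clone. Nor do they say whether the 4 libraries of a group are separate cultures, so the p-values cover the spread between libraries, which may be only technical.

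Histones are the proteins around which DNA is wound: H2A, H2B, H3 and H4 form the nucleosome core, and H1 binds the linker DNA between nucleosomes. The replication-dependent genes are short, mostly without introns, lie in clusters and are transcribed mainly in S phase, when new DNA is packaged. Their mRNAs usually end in a conserved stem-loop bound by SLBP instead of a poly(A) tail, and some of these genes can also make polyadenylated mRNA from a site further downstream. The labels do not say whether polyadenylated RNA was selected for the libraries, and what such a step does to these levels was not tested. In bulk RNA, fewer cells in S phase and less histone mRNA per cell cannot be told apart.

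The stem-loop sequences are shown because they are the defining feature of these mRNAs and because the transcript models differ in how far they run past it. A 16-base pattern was searched that starts with GG, ends with CC, and holds TTT at bases 6 to 8 and A at base 11. The search covered the bases after the stop codon, on the transcript strand, in a protein-coding GENCODE M21 model (GRCm38) of 67 members. For each gene the model with the most bases after the stop codon was taken. The pattern was found in 43 of the 67. These were 4 of 6 H1, 11 of 18 H2A, 9 of 18 H2B, 8 of 12 H3 and 11 of 13 H4 genes. Capitals mark the 16 bases of the match, with 5 flanking bases on each side.
Hist1h1c (H1), chr13:23739507-23739532, plus strand: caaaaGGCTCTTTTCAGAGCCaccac
Hist3h2a (H2A), chr11:58955167-58955192, plus strand: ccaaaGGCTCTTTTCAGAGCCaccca
Hist1h2bg (H2B), chr13:23571838-23571863, plus strand: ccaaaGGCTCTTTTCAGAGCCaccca
Hist1h2bk (H2B), chr13:22036295-22036320, plus strand: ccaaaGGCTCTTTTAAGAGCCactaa
Hist1h3c (H3), chr13:23745042-23745067, minus strand: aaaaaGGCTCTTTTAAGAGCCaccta
Hist1h4i (H4), chr13:22040961-22040986, minus strand: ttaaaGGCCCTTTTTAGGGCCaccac
Hist4h4 (H4), chr6:136803993-136804018, minus strand: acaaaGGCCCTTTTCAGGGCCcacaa
In every one of the 43 matches the 6 bases at each end could pair with each other, and the match began 21 to 58 bases (median 31) after the stop codon. Part of this pairing is set by the pattern itself, through its GG and CC and through T at base 6 with A at base 11. The sequence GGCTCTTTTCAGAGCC was held by 25 genes of H1, H2A, H2B and H3, whereas the H4 genes carried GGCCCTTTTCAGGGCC (7 genes), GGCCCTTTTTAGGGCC (2 genes) or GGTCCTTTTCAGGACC (2 genes). The motif occurred somewhere in 3.45% of 58725 protein-coding transcripts of other genes. No match was found in the models of Hist1h1b and Hist1h2bc, and the Hist1h1b model holds 0 bases after its stop codon. Bases outside the model were not searched, so a missing match does not show that a gene lacks the stem-loop.

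Promoters are shown for the members that fell in KD against CON and that the RefSeq table holds (GRCm38.p6, 63 windows matched to 62 members). These are the 250 bases before the annotated start, with capitals for any match, on either strand, to CCAAT, to TATAAA, to the octamer ATTTGCAT or to AAACACA.
Hist1h1b (H1), chr13:21780626-21780875, minus strand: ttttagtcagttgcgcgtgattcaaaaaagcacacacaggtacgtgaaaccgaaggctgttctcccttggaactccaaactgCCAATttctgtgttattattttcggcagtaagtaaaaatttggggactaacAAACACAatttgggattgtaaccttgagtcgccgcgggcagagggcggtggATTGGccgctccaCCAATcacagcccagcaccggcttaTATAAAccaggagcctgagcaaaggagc
Hist3h2a (H2A), chr11:58954435-58954684, plus strand: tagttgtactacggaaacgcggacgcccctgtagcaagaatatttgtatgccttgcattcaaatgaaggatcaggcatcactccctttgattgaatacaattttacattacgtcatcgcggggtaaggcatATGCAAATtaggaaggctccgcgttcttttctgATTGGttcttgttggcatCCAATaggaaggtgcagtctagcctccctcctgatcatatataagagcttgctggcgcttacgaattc
Hist1h2bn (H2B), chr13:21753826-21754075, plus strand: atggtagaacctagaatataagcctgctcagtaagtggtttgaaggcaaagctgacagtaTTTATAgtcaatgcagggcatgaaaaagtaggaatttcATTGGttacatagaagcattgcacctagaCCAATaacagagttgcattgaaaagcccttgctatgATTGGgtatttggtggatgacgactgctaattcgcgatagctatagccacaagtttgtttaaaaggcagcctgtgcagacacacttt
Hist1h3g (H3), chr13:23535168-23535417, plus strand: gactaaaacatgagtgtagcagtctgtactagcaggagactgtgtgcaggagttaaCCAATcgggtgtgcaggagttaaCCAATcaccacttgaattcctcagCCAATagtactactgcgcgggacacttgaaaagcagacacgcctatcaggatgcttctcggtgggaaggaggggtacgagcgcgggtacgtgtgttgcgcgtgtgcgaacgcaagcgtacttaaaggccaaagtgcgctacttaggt
Counted over the whole windows, which reach 50 bases past the start, CCAAT was in 85.7% of the members' windows against 37.4% of all 32851 RefSeq windows. All H1, H2A, H2B and H3 windows held CCAAT, and 25% of the H4 windows did. The octamer was in 38.9% of the H2A and 41.2% of the H2B windows and in none of the H1, H3 and H4 windows, against 1.74% of all windows. AAACACA was in 83.3% of the H1 windows against 7.18% of all windows, and TATAAA in 55.6% of the members' windows against 13.6%. A match is a description of these letters and not a binding site.

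Between 14060 and 14733 genes were above 0 in a library, and since each library's TPM sum to the same total, the sequencing depth is unknown and no counting interval is given. Wdr62 stood at 5.99 ± 1.79 TPM in CON, 1.15 ± 0.275 in KD and 1.27 ± 0.578 in RE (mean ± SD, n = 4 libraries here and below). The log2 fold change was -1.67 in KD against CON (limma adjusted p = 0.000921) and 0.05 in RE against KD (adjusted p = 0.895). Of 10 markers of atrial and cardiac muscle, Actc1 and Myl7 were listed at 0 in every library and Myh6, Nppa, Ryr2 and Gja5 were below 0.5 TPM in every library, while Tnnt2 stood at 20.7 ± 6.61 TPM in CON. Tnni3 averaged 1.05 TPM in CON, 1.03 in KD and 0.568 in RE, and Myl4 2.23, 4.75 and 5.53 TPM. Nkx2-5 stood at 5.31 ± 2.18, 12.1 ± 2.24 and 18.4 ± 6.09 TPM in these groups. It rose in KD against CON (1.10, limma adjusted p = 0.0229) and in RE against CON (1.63, adjusted p = 0.00309). Over all genes tested, 6.6% and 2.7% rose in these comparisons. Myl4 and Tnnt2, the other markers tested, did not pass in any comparison. CON 4, RE 1 and RE 3 stood apart in transcript length. Over the 2268 longest genes, the median log2 deviation from a gene's mean was -0.82, -0.72 and -0.99 in these libraries and lay between -0.21 and 0.70 in the other 9. The members lie at the other end of the length range, with a median transcript of 620 bases against 3353 over the genes tested, and 39 of the 48 tested members were among the 2269 shortest.

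Of the 68 members, 48 had a mean above 1 TPM over the 12 libraries: 5 of 6 H1, 11 of 18 H2A, 14 of 19 H2B, 6 of 12 H3 and 12 of 13 H4 genes. In the group means, 50 members were above 1 TPM in CON, 33 in KD and 44 in RE, and 13 were above it in each of the 12 libraries. Per library the number ran from 38 to 50 in CON, from 23 to 36 in KD and from 27 to 44 in RE. Hist1h2aa and Hist2h2ab were listed at 0 throughout, and 28 others were at 0 in at least 1 library. By position, 54 members lie in cluster 1 (chr13:21715763-23934851, 41 above 1 TPM), 10 in cluster 2 (chr3:96219865-96270132, 5 above), 3 in cluster 3 (chr11:58948920-58956830, 1 above) and 1, Hist4h4, on chromosome 6 (above).

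The histone mRNA pool rested on few genes. The 8 highest members, Hist1h2bc, Hist1h1c, Hist3h2a, Hist1h4i, Hist1h2bg, Hist2h2aa1, Hist1h2bl and Hist1h2bk, had means of 13.3 to 165 TPM over the 12 libraries and took 80.0% of the members' TPM. No other member was above 10 TPM in that mean, although Hist1h2be, the next, was at 11.99 TPM in the CON mean. By class, H2B took 49.3% of the members' TPM, H1 18.6%, H2A 15.6%, H4 14.0% and H3 2.51%. TPM are per transcript length, so these shares compare levels between genes. In the nucleosome core itself H2A, H2B, H3 and H4 are present in equal number.

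The transcript models differed in how far they run past the stem-loop. In 22 models the transcript ran on for at least 100 bases past the stem-loop, and these genes had a median of 2.11 TPM; 4 of them (Hist1h1c, Hist3h2a, Hist1h4i and Hist1h2bg) were above 10 TPM, and 15 held AATAAA or ATTAAA, the usual polyadenylation signals, after the loop. In the 21 models that end within 100 bases of the loop the median was 1.30 TPM, 2 genes (Hist2h2aa1 and Hist1h2bk) were above 10 TPM, and 1 held such a signal. Over the 43 genes the Spearman correlation of mean TPM with the bases after the loop was 0.29, given as a description, since TPM themselves are divided by transcript length. Hist1h2bc, the most abundant member at 165 TPM, has 742 bases after its stop codon in the searched model without a match to the motif. That model holds 1156 bases of a gene that spans chr13:23684199-23692908, and the rest of the gene was not searched.

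**Figure D1:**
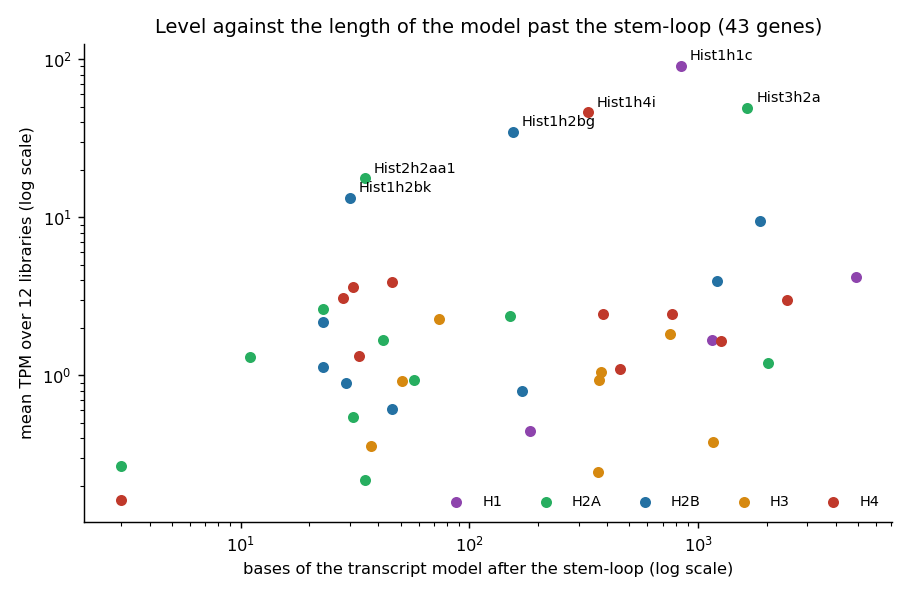
Mean TPM over 12 libraries (log scale) against the bases of the transcript model after the stem-loop (log scale) for the 43 histone genes with a match, each point a gene coloured by class. Hist1h1c, Hist3h2a, Hist1h4i and Hist1h2bg combine a level above 10 TPM with a model that runs at least 100 bases past the loop.

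Many members share much of their sequence with other members, which limits what can be said of single genes. Of the 67 models, 30 shared over 50% of their 50-base words with another member, the median was 47.0%, and only 6 shared none. Hist1h1b (0%), Hist3h2a (2.0%) and Hist1h1c (8.54%) were nearly distinct, Hist1h4i (28.9%) and Hist1h2bc (29.4%) partly so, whereas Hist1h3g (54.1%), Hist1h2bk (74.2%), Hist1h2bl (82.8%), Hist1h2bn (86.4%) and Hist2h2aa1 (89.2%) share most of their sequence and their values are uncertain. The sources used here do not give how reads that fit several copies were counted. Hist3h2a also shares exon sequence on the same strand with Trim17, which stood at 0.293 TPM over the 12 libraries.

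KD was compared with CON to see which histone genes changed when Wdr62 was targeted. The summed TPM of the 68 members was 805, 831, 904 and 558 in CON 1 to 4, 307, 334, 623 and 279 in KD 1 to 4, and 569, 472, 251 and 537 in RE 1 to 4. The means were 775 ± 151 in CON, 385 ± 160 in KD and 457 ± 143 in RE. The KD mean was 0.498 of the CON mean, but KD 3 lay above CON 4, so the groups overlapped. Because the genes were chosen with earlier results of these data known, no p is given for the sums.

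Each of the 5 classes had a lower mean sum in KD than in CON, at similar ratios. The ratio of KD to CON means was 0.471 for H1, 0.512 for H2A, 0.509 for H2B, 0.484 for H3 and 0.482 for H4. The H2A sums (45.5 to 93.3 TPM in KD, 114 to 128 in CON) and the H3 sums (6.08 to 13.9 against 14.7 to 20.1 TPM) did not overlap between the groups, and the H1, H2B and H4 sums did. Most of the H2A sum was Hist3h2a, at a mean of 85.9 of 119 TPM in CON and 33.6 of 61.0 in KD. Hist1h1c made up 140 of the 157 TPM of H1 in CON, so these class sums largely follow single genes. The sums without these genes were not computed. KD 3 was the highest KD library in all 5 classes, and CON 4 the lowest CON library in all 5.

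**Figure D2:**
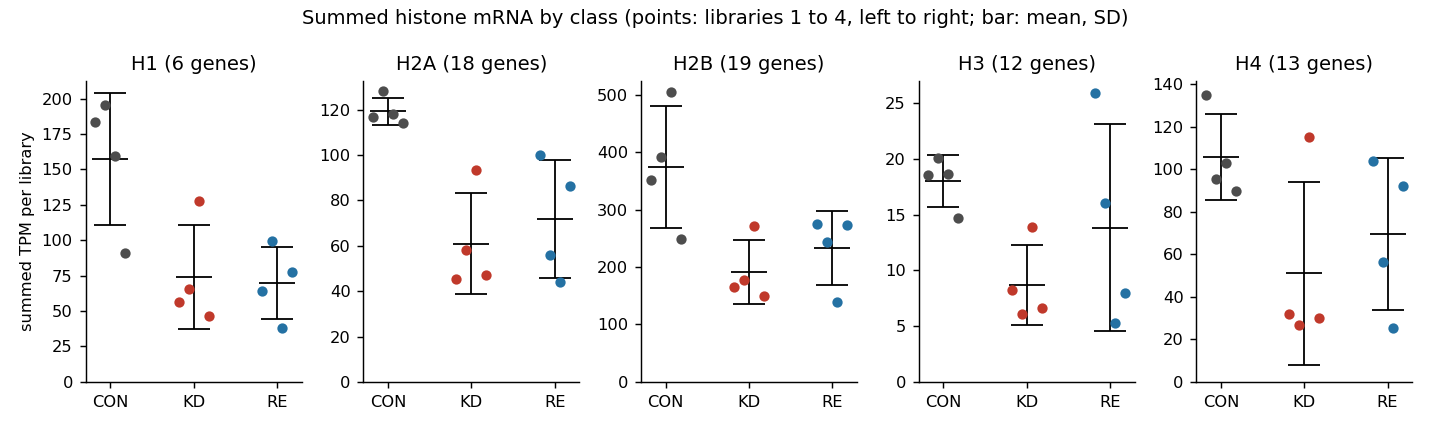
Summed TPM per library of the H1, H2A, H2B, H3 and H4 genes in CON, KD and RE; points are libraries 1 to 4 from left to right and bars the mean and SD. In each panel the KD mean lies below the CON mean, KD 3 is the highest KD point, and RE 3 is the lowest RE point.

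Of the 48 members tested, 5 fell in KD and 0 rose (limma adjusted p below 0.05 over 11774 genes), while 3.61% of all genes tested fell and 6.6% rose. At an unadjusted p below 0.05, 19 were lower and 0 higher. Over all 11774 genes, both directions together, Hist1h3d at an unadjusted limma p of 0.0510 ranked 2824. Of the 48 members, 4 lay wholly below CON without overlap, against 7.02% of all genes. A lower value of any size was seen in 45 of 48 tested members (51.2% of all genes) and a higher one in 3 (48.8%), with a median log2 fold change of -0.66 against -0.01 over all genes. These counts lean towards lower values by the choice of genes: 15 of the 48 were at or under 1 TPM in KD and passed the filter through the other groups, against 1 in CON. Over all 68 members without a filter, the KD mean was below the CON mean in 54, above it in 12 and equal in 2, and over the 17096 genes above 0 it was below in 51.7%.

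The number that fell depended on single libraries. It was 1 (Hist3h2a) when CON 1, CON 2, CON 3, KD 2 or KD 4 was left out, 3 without KD 1, 9 without KD 3 and 10 without RE 3, when 2.05% to 2.28%, 2.21%, 3.92% and 4.96% of all genes fell. Without CON 4 it was 15, but 11% of all genes then fell, and without CON 4, RE 1 and RE 3 together it was 20 with 25.1% of all genes. With a trend on transcript length subtracted from each library it was 5, namely Hist1h1c, Hist1h2bc, Hist1h3g, Hist3h2a and Hist4h4, when 10% of all genes fell.

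**Figure D3:**
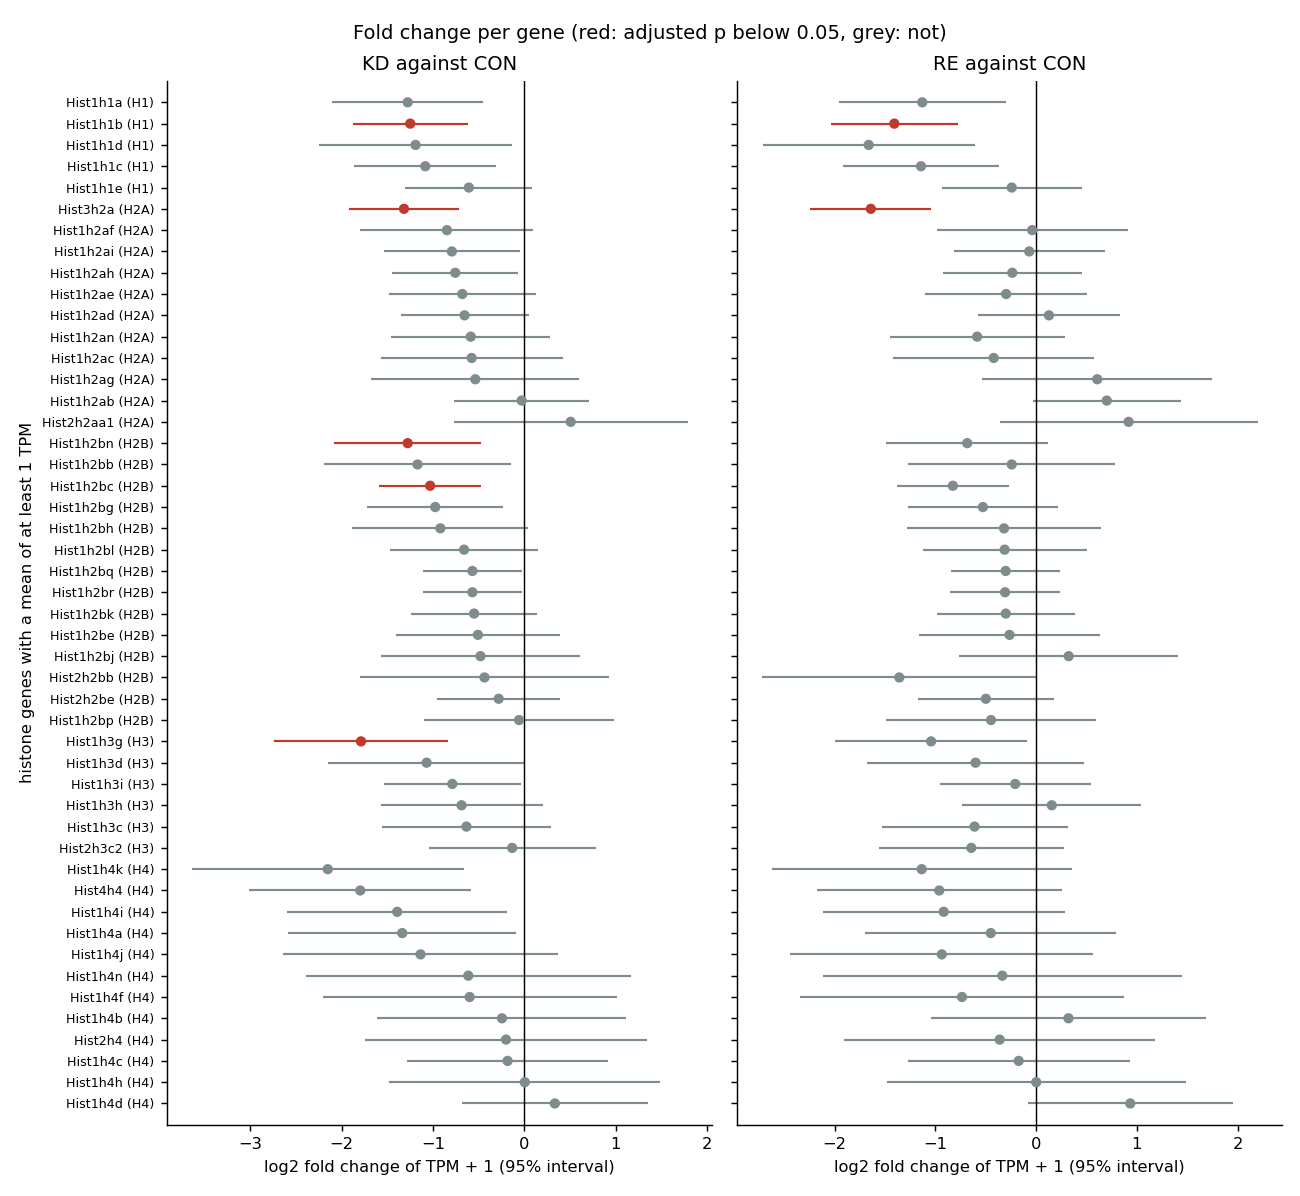
Log2 fold change of TPM + 1 with its 95% interval for the 48 tested histone genes, ordered by class, in KD against CON (left) and RE against CON (right); red marks an adjusted p below 0.05. On the left 45 of 48 points lie below 0 and 5 are red; on the right 39 lie below 0 and 2 are red.

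Among the linker histones, Hist1h1b (ENSMUSG00000058773.2, chr13:21779883-21780625), which encodes the H1.5 subtype, stood at 4.63, 4.98, 4.99 and 1.43 TPM in CON 1 to 4. It was 1.89, 0.760, 0.693 and 0.775 TPM in KD 1 to 4 and 0.589, 0.884, 0.802 and 0.835 TPM in RE 1 to 4. CON 4 was low and KD 1 high within their groups, so CON and KD overlapped, while every RE library lay below every CON library. Hist1h1b fell in KD by a log2 fold change of -1.25 ± 0.29 (SE, limma adjusted p = 0.0157, exact permutation p = 0.0571). Leaving out CON 1, CON 2, CON 3, KD 2 or KD 4 ended the call (adjusted p = 0.0526 to 0.0564), as did the length correction (0.0580). In RE it was lower than in CON by -1.41 ± 0.29 (adjusted p = 0.0117, exact permutation p = 0.0286), and this call held in each alternative run that kept the gene, at an adjusted p of at most 0.0491. With a pseudocount of 0.1 that difference was -2.09.

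Hist1h1c (ENSMUSG00000036181.2), which encodes H1.2 and was the most abundant linker histone, stood at 165, 170, 141 and 84.3 TPM in CON, 52.6, 60.1, 118 and 42.8 in KD, and 60.5, 91.3, 34.2 and 71.8 in RE. KD 3 lay above CON 4 and below the other CON libraries. The log2 difference of -1.08 ± 0.36 in KD did not pass the test (limma adjusted p = 0.0775). It passed in 7 of 20 alternatives, among them those without CON 4 (0.0210), KD 3 (0.0211) or RE 3 (0.0451). Nor did that of -1.14 ± 0.36 in RE against CON pass (adjusted p = 0.0833), except without CON 4 (0.00787) and with the length correction (0.0418). The other tested H1 genes had lower means in KD: Hist1h1d, for H1.3, 7.94 ± 4.58 TPM in CON and 2.83 ± 1.78 in KD, Hist1h1a, for H1.1, 2.47 ± 1.67 and 0.340 ± 0.482 (adjusted p = 0.0532), and Hist1h1e, for H1.4, 2.198 ± 0.956 and 1.198 ± 1.02. Hist1h1t, the testis-specific linker histone, stayed below 1 TPM in the mean of each group.

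Among the core histones, Hist3h2a (ENSMUSG00000078851.4, chr11:58954685-58956830), an H2A gene outside the large chromosome 13 cluster, had the lowest adjusted p of the tested members in KD against CON. It stood at 96.2, 97.0, 85.1 and 65.1 TPM in CON, 28.1, 32.6, 38.3 and 35.4 in KD, and 30.8, 23.6, 14.8 and 45.3 in RE. All KD and RE libraries lay below all CON libraries, and KD and RE overlapped. The log2 fold change was -1.32 ± 0.28 in KD against CON (limma adjusted p = 0.00894, exact permutation p = 0.0286) and -1.64 ± 0.28 in RE against CON (adjusted p = 0.00319, exact permutation p = 0.0286). Both calls held in all 20 alternatives, at adjusted p of at most 0.0353 and 0.0244. RE against KD gave -0.32 ± 0.28 (adjusted p = 0.405).

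The other abundant H2A gene went the other way in its means. Hist2h2aa1 (ENSMUSG00000064220.6) stood at 6.31, 5.54, 8.76 and 30.4 TPM in CON, 9.58, 13.5, 42.1 and 8.02 in KD, and 38.6, 10.7, 15.9 and 22.9 in RE. CON 4, KD 3 and RE 1 were the high libraries and the groups overlapped, so the difference of 0.51 ± 0.59 in KD was within the spread (limma adjusted p = 0.702). Its copy Hist2h2aa2, whose model lies wholly within shared sequence, stood at 2.60 TPM in RE 2 and near 0 in the other 11 libraries, so that the pair summed to 12.8 ± 11.9 TPM in CON, 18.3 ± 16.02 in KD and 22.7 ± 11.4 in RE. Of the 11 tested H2A genes, 10 were lower in KD and Hist3h2a alone passed the test.

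The H2B genes held the most mRNA. Hist1h2bc (ENSMUSG00000018102.5, chr13:23684199-23692908) stood at 230, 251, 311 and 170 TPM in CON, 102, 114, 172 and 86.1 in KD, and 158, 138, 87.5 and 160 in RE. KD 3 (171.5 TPM) lay just above CON 4 (170.0 TPM) and below the other CON libraries, and every RE library lay below every CON library. It fell in KD by -1.03 ± 0.26 (limma adjusted p = 0.0228, exact permutation p = 0.0571), a call that ended when CON 1, CON 2, CON 3, KD 1, KD 2 or KD 4 was left out (adjusted p = 0.0550 to 0.0788). In RE against CON the difference was -0.83 ± 0.26 and did not pass (adjusted p = 0.0830), except without CON 4 (0.00842), without CON 4, RE 1 and RE 3 (0.0358) and with the length correction (0.0414).

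Hist1h2bn (ENSMUSG00000095217.1) stood at 9.19, 7.69, 8.52 and 6.94 TPM in CON, 2.25, 3.43, 4.10 and 1.64 in KD, and 5.91, 9.11, 1.46 and 4.86 in RE. No KD library reached a CON library, and RE spanned both groups. Hist1h2bn fell in KD by -1.28 ± 0.37 (limma adjusted p = 0.0473, exact permutation p = 0.0286), close to the threshold. Leaving out any of CON 1, CON 2, CON 3, KD 1, KD 2, KD 4, RE 1 and RE 4 ended the call (adjusted p = 0.060 to 0.142), as did 4 other settings (0.0590 to 0.109). With 86.4% of its 50-base words shared, most of its model does not distinguish it from other H2B genes.

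The other abundant H2B genes did not pass the test. Hist1h2bg (ENSMUSG00000058385.8) stood at 40.9, 46.6, 75.8 and 28.8 TPM in CON, 17.3, 22.7, 33.7 and 19.2 in KD, and 38.6, 34.7, 16.4 and 42.1 in RE (-0.98 ± 0.34 in KD against CON, limma adjusted p = 0.0976). It passed in 5 of 20 alternatives, among them those without CON 4 (0.0270) or RE 3 (0.0446). Hist1h2bl and Hist1h2bk stood at 17.1 ± 6.28 and 15.7 ± 2.67 TPM in CON and at 10.4 ± 3.86 and 10.8 ± 4.25 in KD, with overlapping groups. All 14 tested H2B genes were lower in KD and 2 passed, Hist1h2bc and Hist1h2bn.

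The H3 genes were the scarcest class, with none above 10 TPM in the mean of the 12 libraries. Hist1h3g (ENSMUSG00000099517.2, chr13:23535422-23535951) stood at 5.61, 7.14, 3.97 and 0.981 TPM in CON, was listed at 0 in KD 1 and KD 4, stood at 0.378 and 1.69 in KD 2 and KD 3, and at 1.89, 0.554, 1.87 and 1.28 in RE. CON 4 lay below KD 3 and the other CON libraries above all KD and RE libraries. It fell in KD by -1.79 ± 0.44 (limma adjusted p = 0.0214, exact permutation p = 0.0571). Leaving out CON 1, CON 2, CON 3, KD 1, KD 2 or KD 4 ended the call (adjusted p = 0.0578 to 0.0762), and at this low level the size depends on the pseudocount: with 0.1 in place of 1 it was -3.59. Hist1h3c (ENSMUSG00000069310.4), the H3 gene with the highest mean over the 12 libraries though not in CON, stood at 3.08 ± 1.22 TPM in CON, 1.77 ± 1.28 in KD and 1.93 ± 1.61 in RE and did not pass in any comparison. All 6 tested H3 genes were lower in KD and Hist1h3g alone passed.

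None of the 12 tested H4 genes passed in KD against CON, although 4 were lower at an unadjusted p below 0.05. Such p-values were common over all genes, where an unadjusted limma p of 0.0510 (Hist1h3d) ranked 2824 of 11774. Hist1h4i (ENSMUSG00000060639.5), which took most of the H4 mRNA, stood at 88.0, 52.9, 61.4 and 64.1 TPM in CON, 19.9, 11.1, 74.7 and 20.5 in KD, and 71.7, 25.2, 14.2 and 51.9 in RE. KD 3 lay within the CON range and the other KD libraries far below it, and the difference of -1.39 ± 0.55 did not pass (limma adjusted p = 0.142). Without KD 3 Hist1h4i did pass, at an adjusted p of 0.0226. Hist4h4 on chromosome 6 (5.52 ± 4.37 TPM in CON and 0.728 ± 0.616 in KD, no overlap, adjusted p = 0.0631) and Hist1h4a (no overlap, adjusted p = 0.175) lay wholly below CON without passing, and Hist1h4k differed by -2.15 ± 0.68 (adjusted p = 0.0684). The last 3 are named for their values.

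**Figure D4:**
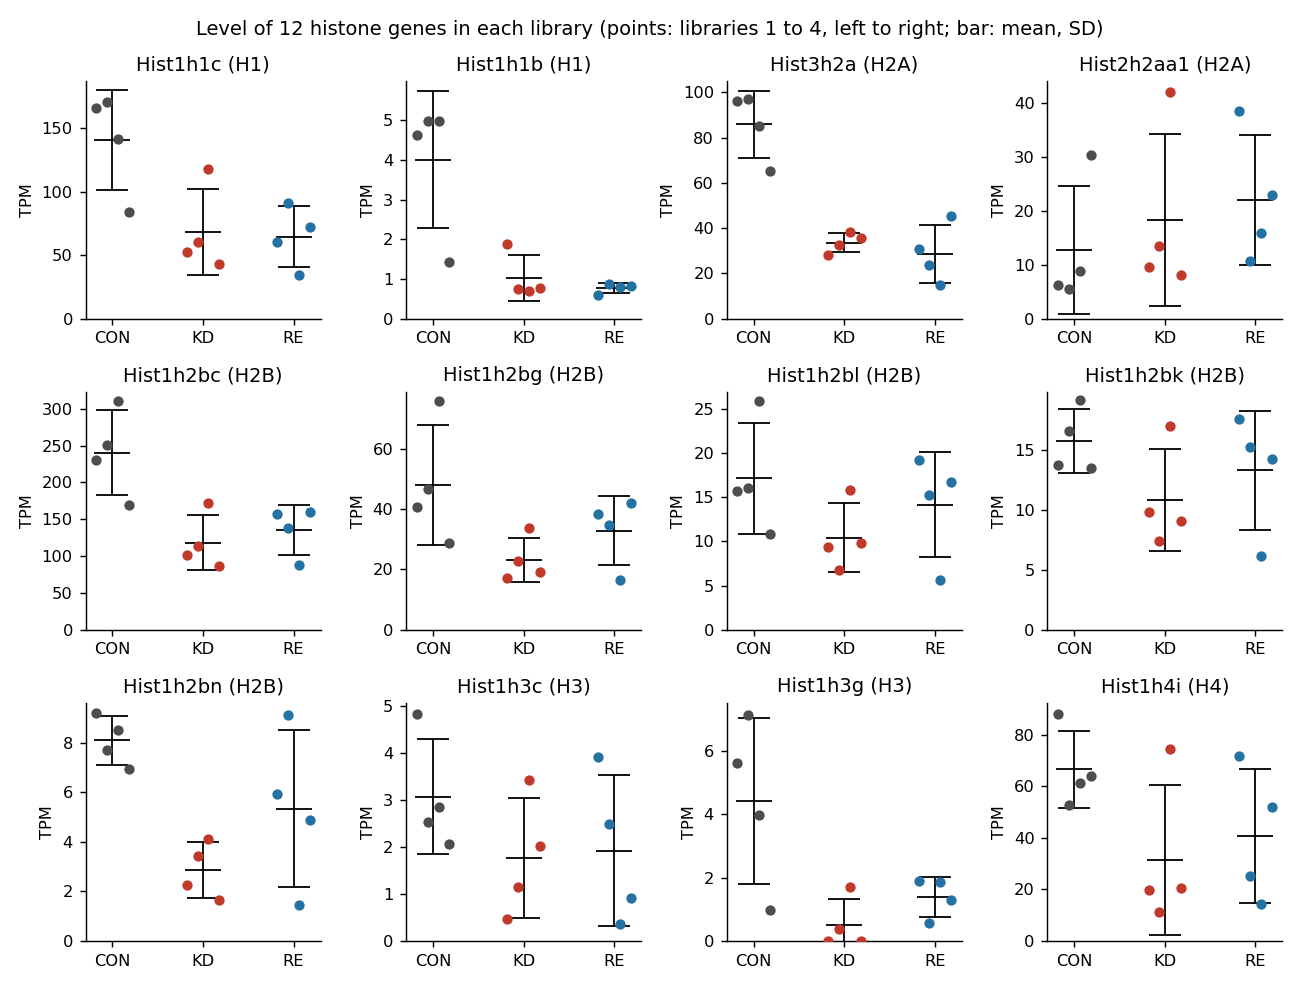
TPM of 12 histone genes in each library of CON, KD and RE; points are libraries 1 to 4 from left to right and bars the mean and SD, each panel with its own scale from 0. All KD and RE points of Hist3h2a lie below all CON points, and KD 3 stands above the other KD points in Hist1h1c, Hist2h2aa1 and Hist1h4i.

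RE was compared with KD to see what the WDR62 virus changed, and with CON to see what stayed different; the 3 comparisons share libraries, so their values stand side by side and are not independent. In RE against KD, 0 of 48 members rose and 0 fell (limma), where 0.187% of all genes tested rose and 0.858% fell. At an unadjusted p below 0.05 there were 2 higher, Hist1h2ad and Hist1h2ag, and 0 lower. Such p-values were common over all genes: Hist1h2ag, at an unadjusted limma p of 0.0495, ranked 3269 of 11774, both directions together. The 2 are therefore no excess over all genes. A higher value of any size was seen in 37 of 48 (28% of all genes) and a lower one in 11 (71.9%), with a median log2 difference of 0.36 against -0.29 over all genes. These counts lean towards higher values by the choice of genes, since 15 of the 48 were at or under 1 TPM in KD. Over all 68 members without a filter, the RE mean was above the KD mean in 47, below it in 19 and equal in 2. Over the 17096 genes above 0 it was above in 31.8%. When libraries were rescaled so that the median of all genes was near 0, the members' median was 0.56 with median-of-ratios scaling, 0.75 with quantile normalization and 0.17 with the length correction. No member separated the groups without overlap, against 3.47% of all genes higher and 10.8% lower.

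By class, the ratio of RE to KD mean sums was 0.943 for H1, 1.17 for H2A, 1.22 for H2B, 1.59 for H3 and 1.36 for H4, and the groups overlapped in each class. RE 3 was the lowest RE library in all 5 classes. Hist1h1b and Hist1h1c differed by -0.16 (95% interval -0.79 to 0.47) and -0.06 (-0.83 to 0.72), Hist3h2a by -0.32 (-0.92 to 0.28), and Hist1h2bc by 0.21 (-0.35 to 0.76). These intervals hold no change as well as a rise or a fall, so the data do not show that the levels in KD and RE were alike.

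In RE against CON, 2 of 48 tested members fell, Hist3h2a and Hist1h1b, and 0 rose (limma), while 3.63% of all genes fell and 2.7% rose. At an unadjusted p below 0.05, 7 were lower and 0 higher. Such p-values were common over all genes in this comparison: Hist2h2bb, at an unadjusted limma p of 0.0511, ranked 3382 of 11774, both directions together. The 7 are therefore no excess over all genes. Groups did not overlap in 3, Hist3h2a, Hist1h1b and Hist1h2bc, all lower in RE (4.76% of all genes), and none was wholly higher (4.46%). The median log2 difference over the members was -0.35 against -0.27 over all genes, and 39 of 48 were lower against 69.3% of all genes and 9 higher against 30.7%. With the median of all genes brought near 0, the members' median was -0.17 with median-of-ratios scaling, -0.10 with quantile normalization and -0.48 with the length correction. The ratio of mean sums was 0.444 for H1, 0.601 for H2A, 0.621 for H2B, 0.768 for H3 and 0.656 for H4, and only the H2A sums (43.9 to 99.8 TPM in RE) did not overlap with CON. Of the H2A means, Hist3h2a held 85.9 of 119 TPM in CON and 28.6 of 71.6 in RE. Without CON 4, 10 members fell and 1 (Hist2h2aa1) rose, while 42% of all genes fell.

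Genes that act on histone mRNA or histones were followed through fixed lists. None of 15 tested genes for histone mRNA transcription and processing changed in any of the 3 comparisons (limma), with a median log2 difference of -0.26 in KD against CON. Slbp, which binds the stem-loop, stood at 91.5 ± 31.8 TPM in CON, 65.8 ± 4.38 in KD and 79.2 ± 39.8 in RE, and Npat, a coactivator of histone gene transcription, at 12.2 ± 5.63, 10.5 ± 3.21 and 5.64 ± 1.96 TPM. Of 22 histone chaperones, Nasp, which carries H1 and H3-H4, fell in KD (131 ± 27.7 to 63.1 ± 13.4 TPM, -1.04 ± 0.28, adjusted p = 0.0346) and the other 21 did not pass. Over all genes tested, 3.61% fell. For Nasp too, leaving out CON 1, CON 2, CON 3, KD 1, KD 2 or KD 4 ended the call (adjusted p = 0.0630 to 0.112). Without CON 4, 3 of the processing genes and 7 of the chaperones fell in KD (11% of all genes), and 8 and 13 in RE against CON (42% of all genes). Without CON 4, RE 1 and RE 3 together, 12 processing genes and 15 chaperones fell in KD (25.1% of all genes). In RE against CON 7 and 6 fell with these 3 libraries left out (24% of all genes). The number of chaperones that fell in KD was 2 without KD 3 or RE 2 (3.92% and 3.58% of all genes) and 3 without RE 3 (4.96%). In RE against KD, 1 chaperone rose without CON 4, KD 3 or RE 2 (3.85%, 0.9% and 0.951% of all genes). In the same comparison, 2 chaperones and 1 processing gene fell without CON 4 (19.9% of all genes).

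The genes of the replication-independent histone variants lie outside the clusters and mostly give polyadenylated mRNA. Of 11 tested, 4 fell in KD (limma, 3.61% of all genes) and 0 rose, with a median log2 difference of -0.69. The number that fell was 1 without KD 1 or KD 2 (2.21% and 2.05% of all genes) and 6 without KD 3 (3.92%). It was 2 without CON 2 or KD 4 (2.18% and 2.23%) or with median-of-ratios scaling (5.79%). In RE against CON 1 fell (3.63% of all genes), and 2 fell and 1 rose without CON 4 (42% and 10.8% of all genes). H1f0, a linker histone that accumulates in non-dividing cells, fell from 821 ± 121 TPM in CON to 320 ± 27.4 in KD and was 299 ± 27.3 in RE. Its log2 fold change was -1.35 in KD against CON (limma adjusted p = 5.06e-05) and -1.45 in RE against CON (adjusted p = 2.88e-05), and both held in all 20 alternatives. H3f3b, 1 of the H3.3 genes, fell from 1090 ± 152 to 512 ± 182 TPM (-1.14, adjusted p = 0.0150) and stood at 685 ± 231 in RE.

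H2afx, for the H2A variant that is phosphorylated at DNA breaks, fell from 118 ± 36.8 to 48.5 ± 20.8 TPM (-1.31, limma adjusted p = 0.0188) and stood at 114 ± 41.0 in RE. H2afz, for H2A.Z, fell from 188 ± 45.4 to 104 ± 23.3 TPM in KD (-0.85, adjusted p = 0.0390) and rose to 246 ± 64.9 in RE (1.22 against KD, adjusted p = 0.0376), the only variant that rose there, where 3 rose without CON 4, KD 3 or RE 2 (3.85%, 0.9% and 0.951% of all genes). The variant calls were lost without single libraries: H3f3b without CON 2, KD 1 or KD 2 (0.0501 to 0.0569), H2afx without KD 1, KD 2 or KD 4 (0.0511 to 0.0691), and H2afz in KD without CON 2, CON 3, KD 1, KD 2, KD 4, RE 1 or RE 4 (0.0525 to 0.128). The rise of H2afz was lost without any library other than CON 4, KD 3 and RE 2 (adjusted p = 0.0575 to 0.166), and with median-of-ratios scaling H2afx and H2afz did not pass in KD (0.0543 and 0.159). H1f0 and H3f3b are single-gene values per transcript length and exceed every clustered member in CON.

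Of 37 S phase genes, 6 fell in KD and 0 rose (limma), where 3.61% of all genes fell and 6.6% rose. In 35 the value was lower by any size (51.2% of all genes), and the median log2 difference was -0.96 against -0.01 over all genes. Rfc3, a subunit of the clamp loader, fell from 121 ± 26.1 to 39.6 ± 9.29 TPM (-1.59, adjusted p = 0.0184) and Mcm7, of the replicative helicase, from 120 ± 27.2 to 52.8 ± 14.1 (-1.18, adjusted p = 0.0489). Gins1 (-1.11), Rfc4 (-1.01), Tk1 (-0.67) and, as the last of the 6, Rfc2 (-0.70) also fell. Tk1, for thymidine kinase, rose in RE against KD (85.6 ± 17.9 to 171 ± 41.4 TPM, 0.99, adjusted p = 0.0376), the only S phase gene that did, and the call was lost without any library other than CON 4, KD 3 and RE 2 (0.0618 to 0.166). The number that fell in KD was 0 without CON 1, CON 2, CON 3, KD 1 or KD 2, 1 without KD 4, 20 without RE 3 (4.96% of all genes fell) and 24 without CON 4 (11% of all genes). The same number was 18 with median-of-ratios scaling (5.79% of all genes), 19 with quantile normalization (7.11%) and 21 with the length correction (10%). It was 32 without CON 4, RE 1 and RE 3 together (25.1% of all genes). In RE against CON none changed, and 18 fell without CON 4, when 42% of all genes fell. In that comparison 8 fell without CON 4, RE 1 and RE 3 together (24% of all genes). In RE against KD 5 rose without CON 4, when 3.85% of all genes rose. How far the number of cells in S phase accounts for the clustered histones was not tested.

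**Figure D5:**
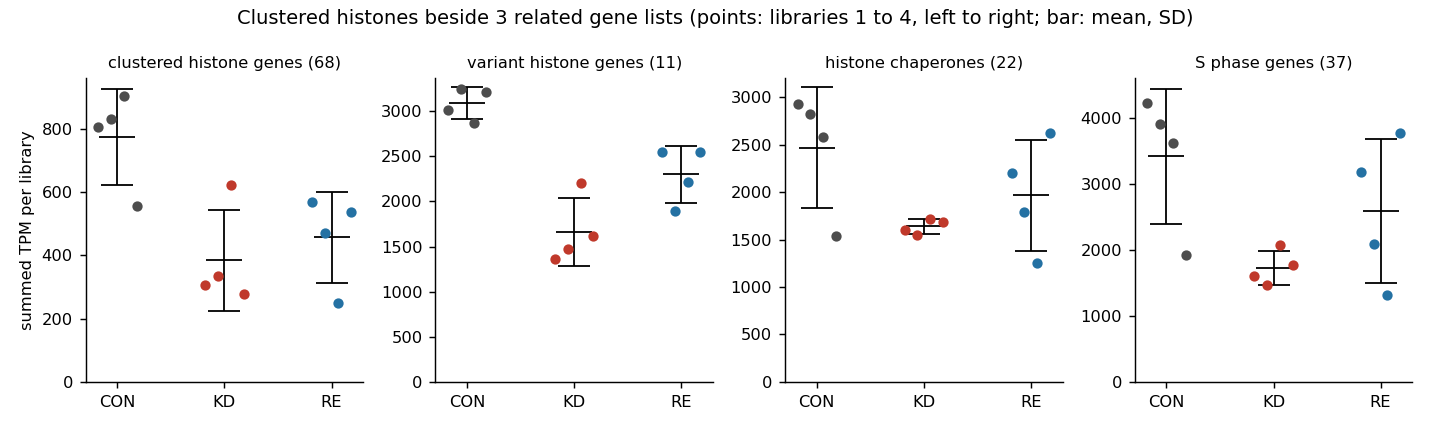
Summed TPM per library of the 68 clustered histone genes, the variant histones, the histone chaperones and the S phase genes; points are libraries 1 to 4 from left to right and bars the mean and SD, each panel with its own scale from 0. The KD mean is the lowest in each panel, and CON 4 and RE 3 are the lowest of their groups in all panels except the variants.

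Markers of other cell types moved with the groups as well, and their part in the results was not tested. The summed level of 6 skeletal muscle markers was 21.3 to 41.0 TPM in CON, 8.13 to 10.4 in KD and 7.35 to 15.2 in RE, and all 4 that were tested fell in KD (3.61% of all genes). The 6 fibroblast markers summed to 604 to 876 TPM in CON, 705 to 859 in KD and 362 to 518 in RE. Of these, 2 of 5 tested fell in KD and 3 of 5 in RE against CON (3.63% of all genes). The 4 endothelial markers stayed below 1 TPM in sum in every library, and of the 4 leukocyte markers Ptprc was listed at 0 in 11 libraries. Cd68, a macrophage marker and the only leukocyte gene tested, stood at 5.55 ± 1.21 TPM in CON, 7.58 ± 0.940 in KD and 8.88 ± 3.32 in RE and did not pass in any comparison (lowest adjusted p = 0.165, RE against CON, limma). Of other RNAs that lack a poly(A) tail, Rmrp alone was tested and did not pass in any comparison, and it stood at 233 TPM in RE 2 against at most 24.8 TPM in the other libraries.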

How the data were processed

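The authors deposited 1 table of TPM values, 23184 gene symbols by 12 libraries. The submitters' processing notes list Cufflinks 2.2.1, TopHat2 2.1.1 and Trim Galore 0.6.6 and the build mm10. The sources used here do not give how TPM were made from these or whether counting used strand. Each column of the deposited TPM sums to 1000000, so depth is unknown. The columns named WT were taken as CON, whose labels give that genotype. They are called CON 1 to CON 4 by their column number, which ties none to a particular sample.

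Genes with a mean of at least 1 TPM over the 12 libraries (11774, of them 48 histone genes) were tested on the log2(TPM + 1) scale, which understates changes of low genes. All libraries entered 1 limma 3.58.1 model (R 4.3.3, mean-variance trend, two-sided), with Benjamini-Hochberg adjustment over all genes tested and a threshold of 0.05; every adjusted p comes from this model or, where an alternative is named, from its refit. The model was tested on simulated data. Single genes also had a two-sided exact permutation test (4 against 4 values), whose smallest p is 0.0286. Sums, ratios and sequence matches carry no test. Histone genes were matched to GENCODE M21 and, through synonyms, to RefSeq. Genes named in full were Hist1h1b, Hist1h2bc, every histone gene that changed, the 8 with the highest mean, the highest of each class, and up to 4 changed genes per related list and comparison. The genes and lists were chosen with earlier results of these data known. Alternatives were a pseudocount of 0.1, no filter, a 5 TPM filter, quantile normalization, median-of-ratios scaling, a replicate block, the 2 compared groups alone, leaving out CON 4, RE 1 and RE 3, subtraction of a loess trend on transcript length (span 0.5), and leaving out each library.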

Additional observations from a re-analysis of the deposited data

Results flagged for a closer look

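Within the groups of 4, 1 library stood apart from the other 3 in 7 of 54 gene or sum values checked per group (its gap to the nearest, over the range, was above Dixon's critical value), and chance flags about 1 in 20 such groups. KD 3 was the highest KD library in 4 of them: the sum of all 68 histone genes was 623 TPM there, the H4 sum 115 TPM, Hist1h4i 74.7 TPM and Hist2h2aa1 42.1 TPM. CON 4 was the lowest CON library for Hist1h1b, at 1.43 TPM, and the highest for Hist2h2aa1, at 30.4 TPM. KD 1 was the highest KD library for Hist1h1b, at 1.89 TPM. The 4 KD 3 values are not independent, since Hist1h4i is part of both sums.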

How the results depend on the processing

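The number of tested histone genes that fell in KD against CON was 5, and it was 2 with a filter of 5 TPM (2.72% of all genes fell), 9 with median-of-ratios scaling (5.79%), 10 with quantile normalization (7.11%), 8 with the 2 compared groups alone (4.13%) and 20 without CON 4, RE 1 and RE 3 (25.1%); leaving out 1 library gave 1 to 15. In RE against CON, 2 fell, against 1 with the 5 TPM filter (2.37% of all genes), 4 with the length correction (5.46%), 9 without CON 4, RE 1 and RE 3 (24%), and 2 to 10 with 1 library left out (higher: 0 to 1). In RE against KD, 0 rose and 0 fell, against 2 that rose without CON 4, RE 1 and RE 3 (0.136% of all genes). With the replicate number as a block, 2 rose and 1 fell in RE against KD, and 0 and 0 with the block and the length correction. The share of all genes that changed was not counted with the block, so its counts cannot be judged against that share. Same-numbered KD and RE libraries had correlations of their deviations of -0.55, 0.65, 0.24 and -0.25, and those of unlike number ran from -0.69 to 0.64. These values cannot show whether same-numbered libraries were prepared together. No paired analysis was possible because the CON columns' numbers are tied to no sample for the 2 comparisons with CON. The log2 ratio of the summed TPM moved by less than the spread between libraries in each alternative run, and no result with a call reversed. Median-of-ratios scaling moved the median of all genes from -0.29 to 0.00 in RE against KD and from -0.27 to 0.01 in RE against CON. Over all genes tested, that scaling gave 595 that rose and 500 that fell in RE against CON, in place of 318 and 427, and 32 and 46 in RE against KD, in place of 22 and 101. The cause of these changes was not tested.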
